A study of Homo sapiens with 6 samples.

Results

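The chemokines and chemokine receptors were taken as the rows of the deposited counts table whose gene symbol starts with CCL, CXCL, CX3CL, XCL, CCR, CXCR or ACKR followed by a number, with CCL3L3 and CCL4L2 included. The rule matched 63 of the 63140 genes, 43 ligands and 20 receptors. It did not use any measured value, and it leaves out relatives with other symbols, such as PF4, PPBP, CX3CR1 and CCRL2, which are described near the end. The genes were compared between NOZ, an established human gallbladder cancer cell line (the parental line), and NOZ-R (the resistant line), a line made from it by raising the drug dose step by step and labelled as resistant to gemcitabine, a nucleoside analogue. Each line had 3 RNA-seq libraries, made from RNA captured by its poly-A tail. The labels give no dose, no number of passages, no statement on whether the drug was present at harvest, and no statement on whether NOZ-R is 1 clone or whether the libraries came from separate cultures. The p-values therefore rest on the spread of the libraries alone, and that spread may be technical.

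Chemokines are small secreted proteins that steer the migration of cells, and their families are named after the spacing of conserved cysteines. The ELR-positive CXC ligands attract neutrophils, the ligands of CXCR3 are induced by interferon and attract T cells, and many CC ligands attract monocytes, T cells or eosinophils. Their receptors couple to inhibitory G proteins, whereas the atypical receptors bind chemokines and scavenge them. In epithelial and tumor cells many of the inflammatory ligands are under the control of NF-kappaB.

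Total counts lay between 14136037 and 19244923 per library. The epithelial keratins KRT8 and KRT19 were among the abundant transcripts of both lines, with KRT8 at 949 CPM ± 89.5 in the parental and 1127 CPM ± 32.2 in the resistant libraries (SD, n = 3 each). CPM are counts scaled to a common library size, per 1000000 counts. Of the 15 epithelial and biliary markers, 12 were tested, and 5 were called higher in NOZ-R, 5 lower and 2 did not pass. Among all genes tested 30.4% were called higher and 29.8% lower. SOX17 had 0 counts in every library. Within NOZ, replicate 2 stood apart in base composition. The rank correlation across genes between its deviation from the line's mean and transcript GC content was -0.528, against 0.333 and 0.388 in NOZ replicates 1 and 3. Leaving this library out did not change the count of called family members. Of all genes tested, the resistant line was called higher for 4379 and lower for 4284. When library size alone was used for scaling, the median log2 fold change of all genes went from -0.01 to -0.14, with 3316 genes higher and 5468 lower.

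Of the 63 family members, 34 had at least 1 count in some library and 29 had none. Counts in both lines were found for 23 members, in NOZ-R alone for 8 and in NOZ alone for 3. A total of 17 members had enough counts to be tested, and of these 13 were higher in NOZ-R, none was lower and 4 did not pass (edgeR quasi-likelihood F test, p adjusted by Benjamini-Hochberg over all genes tested, at 0.05). At an unadjusted p below 0.05 the count of lower members by edgeR was also 0, and DESeq2 and limma on FPKM values called none lower. Among all 14386 genes tested, 30.4% were called higher, 29.8% lower and 60.2% in either direction. All 13 called members, 76.5% of the 17 tested, were at least 2-fold higher, against 8.96% of all genes tested. At least 4-fold higher were 11, or 64.7% of the 17, against 4.1% of all genes tested. Both shares include members that passed the filter on low counts through NOZ-R alone. For these the filter favours a large difference, so they add no support to either share.

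The filter on low counts bears on how these numbers can be read. Of the 17 tested members, 10 passed it in fewer than 3 NOZ libraries, and 9 of these, the exception being CCR10, passed in all 3 NOZ-R libraries. For members that passed through the higher line alone the filter favours a difference, so the count of calls among these 9, of which 8 were called and CCR7 was not, is no support. The other 7 members passed in all 3 NOZ libraries. They were CXCL8, CXCL1, CXCL2, CXCL3, CX3CL1, CCL28 and CXCR6, and 5 of the 7 were called higher, against 28.7% of all genes that passed in the same way. The 3 NOZ-R libraries lay above all 3 NOZ libraries in 14 of the 17 tested members, the 13 called ones and CCR7, against 32.9% of all genes tested. These 14 include the 9 members that passed through NOZ-R alone, for which the same limit holds. Of the 11 tested members with a NOZ mean below 1 CPM, 9 were called higher, against 41% of all genes at that level. All of them except CXCL3 had passed through NOZ-R alone, so this count is no support either.

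**Figure D1:**
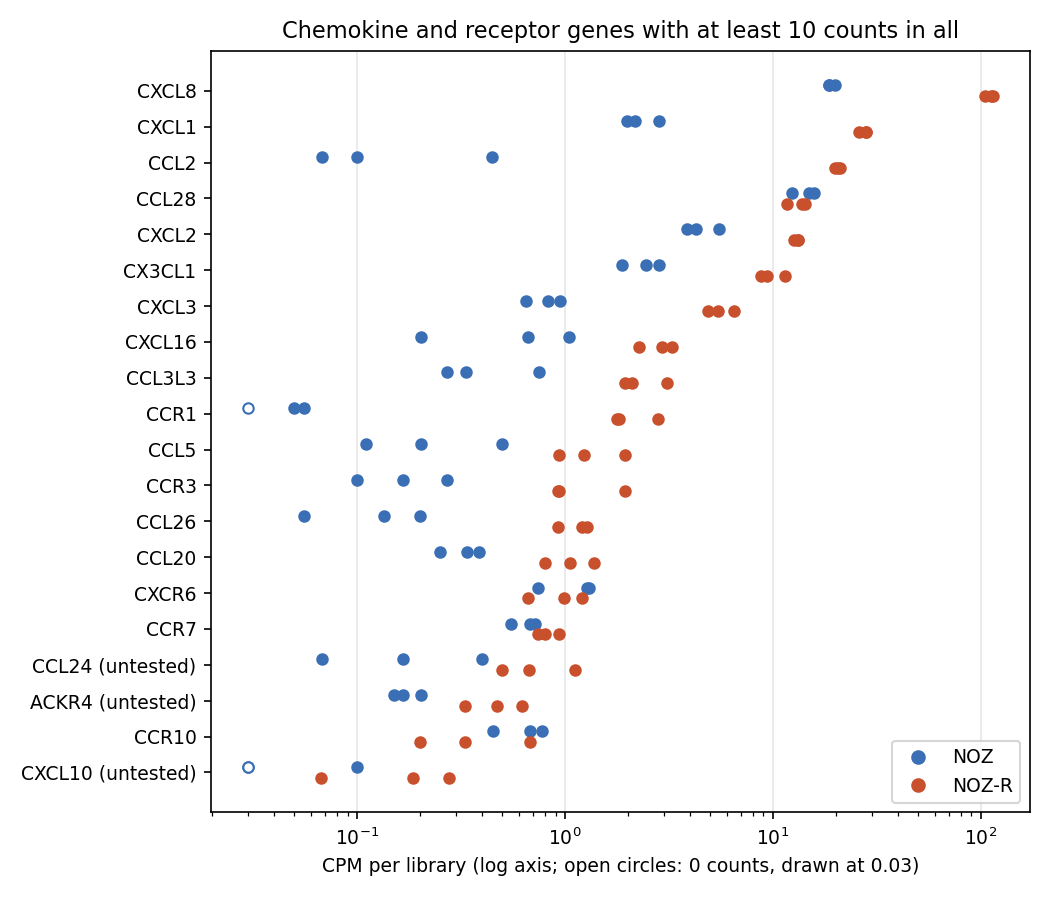
CPM in each library (log axis) for the 20 family members with at least 10 counts in all, ordered by the NOZ-R mean, with NOZ in blue and NOZ-R in red. CXCL8 was the highest in both lines, CCL2 and CCR1 were near 0 in NOZ, and CCL28, CXCR6 and CCR10 overlapped between the lines.

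The summed CPM of all 63 members lay between 47.2 and 50.5 in the NOZ libraries and between 209 and 221 in the NOZ-R libraries. CXCL8 alone gave 36.9% to 42.0% of the members' counts in NOZ and 49.9% to 51.6% in NOZ-R. Without CXCL8 the sums were 27.4 to 31.9 CPM in the parental libraries and 104.8 to 107.5 CPM in the resistant ones. The libraries of the lines did not overlap in either sum. In these bulk samples fewer cells with a transcript and less of it per cell cannot be told apart.

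The ELR-positive CXC ligands held most of the counts of the family. Of the 6 genes, CXCL8, CXCL1, CXCL2 and CXCL3 were tested and all 4 rose, with a median log2 fold change of 2.67. CXCL5 had 2 counts over the NOZ-R libraries and none in NOZ, and CXCL6 had 0 counts in every library.

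CXCL8, interleukin-8, is the best known attractant of neutrophils and acts through CXCR1 and CXCR2. It lies on chromosome 4 (GRCh38, 73740506 to 73743716). It measured 18.5, 19.8 and 18.6 CPM in the parental libraries and 104.4, 113.7 and 111.8 CPM in the resistant ones, here and below in the order of replicates 1 to 3. The lines were far apart, and each kept a narrow range. By edgeR it rose by 2.53 ± 0.0715 (SE) on the log2 scale, adjusted p = 4.12e-12.

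CXCL1 (chromosome 4, 73869393 to 73871242), a ligand of CXCR2 first described as a growth factor of melanoma cells, showed the largest fold change of the 4. Its level was 1.997, 2.16 and 2.84 CPM in the parental libraries and 28.0, 27.9 and 26.0 CPM in the resistant ones, with no overlap. By edgeR it rose by 3.57 ± 0.131 (SE) on the log2 scale, adjusted p = 6.28e-11. Its close relative CXCL3 (chromosome 4, 74036589 to 74038807) measured 0.649, 0.831 and 0.948 CPM in the parental libraries and 4.86, 6.504 and 5.43 CPM in the resistant ones, and edgeR put the log2 difference at 2.80 ± 0.232 (SE), with an adjusted p of 2.13e-07.

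CXCL2 (chromosome 4, 74097035 to 74099293), the third of these relatives, was the higher one of them in NOZ and rose the least. It measured 3.84, 4.27 and 5.49 CPM in the parental libraries and 13.2, 12.6 and 13.1 CPM in the resistant ones, again without overlap. By edgeR it rose by 1.53 ± 0.140 (SE) on the log2 scale, adjusted p = 5.76e-07. The transcripts of these relatives share sequence. Of all stretches of 50 bases in the longest annotated transcript, 5.73% of those of CXCL1, 9.24% of those of CXCL2 and 3.02% of those of CXCL3 also occur in another gene's transcripts, mainly each other's, so a small part of their reads could be assigned to the wrong gene. CXCL8 shares none.

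The promoters of this cluster are shown because the 4 genes that rose and the pair that stayed at or near 0 carry the same short motif. The windows hold the 150 bases before the RefSeq transcription start in GRCh38.p14, on the strand of the gene, 5′ to 3′. They are chr4:73740419-73740568 for CXCL8, chr4:73869243-73869392 for CXCL1, chr4:74099196-74099345 for CXCL2 on the minus strand, chr4:74038690-74038839 for CXCL3 on the minus strand, chr4:73998678-73998827 for CXCL5 on the minus strand and chr4:73836528-73836677 for CXCL6. Capitals mark matches on either strand to the kappa B motif of NF-kappaB or to its letters GGAATTTCC, and in CXCL8 also the AP-1 motif TGANTCA.
CXCL8: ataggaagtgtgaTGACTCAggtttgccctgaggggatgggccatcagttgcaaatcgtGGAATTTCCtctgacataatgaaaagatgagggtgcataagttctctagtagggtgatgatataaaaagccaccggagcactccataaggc
CXCL1: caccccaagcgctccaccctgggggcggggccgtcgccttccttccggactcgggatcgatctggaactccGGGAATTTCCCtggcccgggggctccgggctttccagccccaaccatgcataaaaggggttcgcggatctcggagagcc
CXCL2: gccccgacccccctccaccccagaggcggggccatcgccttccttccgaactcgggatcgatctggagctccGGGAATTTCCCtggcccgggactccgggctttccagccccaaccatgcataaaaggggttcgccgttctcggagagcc
CXCL3: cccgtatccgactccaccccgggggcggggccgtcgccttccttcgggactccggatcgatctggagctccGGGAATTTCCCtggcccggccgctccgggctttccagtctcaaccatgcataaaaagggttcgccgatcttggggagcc
CXCL5: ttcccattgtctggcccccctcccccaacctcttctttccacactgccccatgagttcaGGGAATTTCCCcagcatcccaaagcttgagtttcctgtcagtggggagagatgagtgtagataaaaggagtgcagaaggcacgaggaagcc
CXCL6: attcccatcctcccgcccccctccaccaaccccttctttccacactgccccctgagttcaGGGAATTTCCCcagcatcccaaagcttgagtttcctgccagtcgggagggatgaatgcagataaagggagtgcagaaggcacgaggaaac

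Upstream windows of 250 bases were searched on both strands in all genes of the RefSeq promoter table, which held 43 of the 63 members. The letters GGAATTTCC occurred in 4 of the 9 members with a window that were called higher, which were CXCL1, CXCL2, CXCL3 and CXCL8, and in 4 of the 32 untested ones, which were CXCL5, CXCL6, CXCL10 and CXCL11. They occurred in 0.502% of all 27305 genes with a window. The longer kappa B motif was searched as GGGRNNYYCC, where R is A or G, Y is C or T and N is any base. It overlaps the letters GGAATTTCC where both occur. It occurred in 5 of the 9 and 6 of the 32, against 11.8% of all genes and 15.4% of the 10497 tested genes with a window. The 5 were CCL20, CCR3, CXCL1, CXCL2 and CXCL3. The AP-1 motif TGANTCA occurred in 1 of the 9, CXCL8, in 1 of the 2 members with a window that were tested and not called, CXCR6, and in 6 of the 32 untested ones, against 8.06% of all genes. The interferon response motif, which is GAAA, 2 bases of any kind and GAAA, occurred in none of the 9 and in 3 of the 32, CCR6, CXCL9 and CXCL10, against 3.71% of all genes. Among the tested genes with a window the shares were 0.505% for GGAATTTCC, 6.54% for the AP-1 motif and 3.45% for the interferon response motif. CXCL1, CXCL2 and CXCL3 are copies of 1 ancestral gene, and CXCL5 and CXCL6 are another such pair, so their windows are not independent. A match describes the letters and is not evidence of binding.

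The ligands of CXCR3 were close to absent in both lines. CXCL10 had 2, 0 and 0 counts in the parental libraries and 5, 3 and 1 counts in the resistant ones, too few for the test. CXCL11 had 2 counts in 1 NOZ-R library and CXCL9 had 0 in all. Of the other CXC ligands, CXCL16 (chromosome 17, 4733526 to 4739922), which is made as a membrane-bound protein and shed as a soluble ligand of CXCR6, was the 1 tested. It measured 1.05, 0.665 and 0.203 CPM in the parental libraries and 2.27, 2.91 and 3.29 CPM in the resistant ones, and edgeR put the log2 difference at 2.05 ± 0.370 (SE), with an adjusted p of 0.000305. Its NOZ libraries spread widely but stayed below those of NOZ-R. CXCL16 shares exon sequence with MED11 on the opposite strand, and the counting is not stated to use strand. CXCL12, CXCL13 and CXCL14 had 0 counts, and CXCL17 had 1 count in NOZ.

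Among the CC ligands for monocytes, T cells and eosinophils, 5 of 21 in the table were tested and all 5 rose, against 30.4% of all genes tested. All 5 passed the low-count filter in the NOZ-R libraries and not in all 3 of NOZ, so this count is no support for a change of the group. CCL2, the main attractant of monocytes, went from a few counts to the third level of the family. It lies on chromosome 17 (34255218 to 34257203). There were 2, 8 and 1 counts in the parental libraries and 373, 321 and 314 in the resistant ones. All 3 NOZ-R libraries held a similar level, at 20.5 CPM ± 0.592 (SD, n = 3), and most of the NOZ counts came from replicate 2. The resistant line held 98.5 times the parental level, with a 95% counting interval of 54.8 to 198, and edgeR fitted a log2 difference of 6.57 ± 0.256 (SE), with an adjusted p of 1.12e-10. With so few NOZ counts this SE can understate the error. Without NOZ replicate 2, which held 8 of the 11 NOZ counts, the log2 difference was 7.78.

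CCL26, eotaxin-3, and CCL24, eotaxin-2, are neighbouring genes on chromosome 7 whose products act on the eosinophil receptor CCR3. CCL26 (chromosome 7, 75769533 to 75789896) had 4, 1 and 2 counts in the parental libraries and 23, 15 and 18 in the resistant ones, and edgeR put the log2 difference at 3.04 ± 0.487 (SE), with an adjusted p of 0.00011. CCL24 had 8, 3 and 1 counts in the parental libraries and 9, 18 and 10 in the resistant ones, too few for the test. In CPM its NOZ-R libraries lay above those of NOZ. When no filter was applied its edgeR adjusted p was 0.0116, with a log2 fold change of 1.72 ± 0.578 (SE).

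CCL5 (chromosome 17, 35871491 to 35880793), also called RANTES, attracts T cells and monocytes, and CCR1 and CCR3 are among its receptors. It had 10, 2 and 3 counts in the parental libraries and 17, 20 and 29 in the resistant ones, and edgeR put the log2 difference at 2.24 ± 0.494 (SE), with an adjusted p of 0.00148. Without NOZ replicate 1, which held 10 of its 15 NOZ counts, CCL5 was at 3.10 on the log2 scale. CCL20 (chromosome 2, 227805739 to 227817564), the ligand of CCR6 at mucosal surfaces, had 5, 7 and 5 counts in the parental libraries and 25, 17 and 12 in the resistant ones, and edgeR put the log2 difference at 1.74 ± 0.408 (SE), with an adjusted p of 0.00228. In the test against a 2-fold change CCL20 did not pass (edgeR adjusted p = 0.133), the 1 call among the 13 that this test lost, in which 5.89% of all genes were called higher. CCL3L3 (chromosome 17, 36194869 to 36196758), a copy of the macrophage inflammatory protein gene CCL3, had 15, 6 and 4 counts in the parental libraries and 38, 50 and 29 in the resistant ones, and edgeR put the log2 difference at 2.33 ± 0.376 (SE), with an adjusted p of 0.000119. Without NOZ replicate 1, which held 15 of its 25 NOZ counts, CCL3L3 was at 2.95 on the log2 scale. CCL5 shares 17.5% of its stretches of 50 bases with other genes' transcripts. CCL3 itself was listed at 0 in every library. Part of the CCL3L3 transcript (366 or 26% of its stretches of 50 bases) occurs in other gene models. Most of these stretches, 294, occur in AC243829.1, which shares exon sequence on the opposite strand, and 76 occur in CCL3. Counts therefore cannot be assigned with certainty to 1 of the copies or to 1 strand. CCL4 was also listed at 0, and its copy CCL4L2 had 6 counts over NOZ and 1 over NOZ-R.

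CCL28, a mucosal chemokine of glandular epithelium, was the 1 homing ligand expressed and the 1 abundant member that did not differ beyond the spread. It lies on chromosome 5 (43376645 to 43412391). CCL28 measured 15.0, 12.4 and 15.8 CPM in the parental libraries and 11.7, 13.8 and 14.3 CPM in the resistant ones, and the lines overlapped. By edgeR the log2 difference was -0.12 ± 0.120 (SE), adjusted p = 0.417. CCL19, CCL21, CCL25 and CCL27 had 0 counts.

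CX3CL1, fractalkine, is a membrane-bound chemokine that also acts as an adhesion molecule. It lies on chromosome 16 (57372458 to 57385048). CX3CL1 measured 2.85, 1.88 and 2.44 CPM in the parental libraries and 11.4, 8.80 and 9.39 CPM in the resistant ones, with the highest NOZ library well below the lowest of NOZ-R. By edgeR it rose by 2.04 ± 0.180 (SE) on the log2 scale, adjusted p = 3.90e-07. XCL1 and XCL2 had 0 counts.

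**Figure D2:**
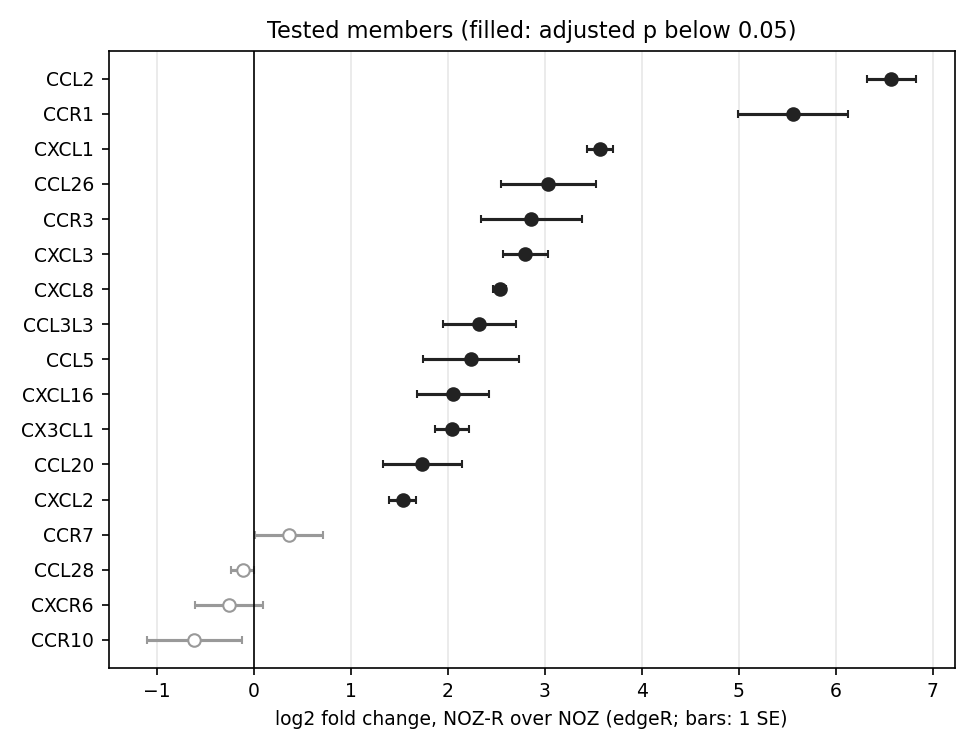
Log2 fold change of NOZ-R over NOZ for the 17 tested members (edgeR, bars show 1 SE), filled where the adjusted p was below 0.05. CCL2 at 6.57 and CCR1 at 5.56 stood highest, and CCR7, CCL28, CXCR6 and CCR10 lay around 0 and did not pass.

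Receptor transcripts were scarce in both lines. Summed over the 20 receptors, they gave 2.78 to 3.49 CPM in the NOZ libraries and 5.63 to 7.12 CPM in the NOZ-R libraries, against 43.7 to 47.7 and 203 to 214 CPM for the 43 ligands. These sums are not corrected for gene length. Of the 20 receptors 5 were tested, and 2 of them, CCR1 and CCR3, rose.

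CCR1 (chromosome 3, 46201709 to 46208396), a receptor of CCL5 and the CCL3 group on monocytes and neutrophils, had 1, 1 and 0 counts in the parental libraries and 32, 45 and 27 in the resistant ones. The resistant line held 55.9 times the parental level, with a 95% counting interval of 15.1 to 468, and edgeR fitted a log2 difference of 5.56 ± 0.565 (SE), with an adjusted p of 1.60e-06. CCR3 (chromosome 3, 46163604 to 46266706), the eotaxin receptor, had 2, 3 and 4 counts in the parental libraries and 35, 15 and 14 in the resistant ones, and edgeR put the log2 difference at 2.86 ± 0.519 (SE), with an adjusted p of 0.000318. The NOZ-R level of CCR3 was highest in replicate 1, at 1.93 CPM against 0.929 and 0.939 in replicates 2 and 3. In the annotation used CCR1 lies inside an intron of CCR3 on the opposite strand, without shared exons.

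CCR7, the receptor that guides cells to lymph nodes, had 11, 13 and 10 counts in the parental libraries and 17, 13 and 11 in the resistant ones. Its log2 fold change of 0.36 ± 0.351 did not pass (SE, edgeR adjusted p = 0.388), although in CPM the lines did not overlap. CXCR6, the receptor of CXCL16, had 26, 23 and 11 counts in the parental libraries and 12, 16 and 18 in the resistant ones and overlapped between the lines, and edgeR put the log2 difference at -0.26 ± 0.348 (SE), with an adjusted p of 0.546. CCR10, a receptor of CCL28, had 9, 14 and 10 counts in the parental libraries and 6, 11 and 3 in the resistant ones, and edgeR put the log2 difference at -0.62 ± 0.488 (SE), with an adjusted p of 0.292. CCR10 shares 33% of its stretches of 50 bases with transcripts of other genes. Of these stretches, 390 occur in AC100793.2 and 235 in CNTNAP1, which both share exon sequence with it on the opposite strand. None of these tests shows that the lines held equal levels.

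The receptors CXCR1, CXCR2 and CCR2, which bind ELR-positive ligands or CCL2, were at or near 0. CXCR1, a receptor of CXCL8, had 0 counts, and CXCR2, the shared receptor of the ELR-positive ligands, had 1, 1 and 0 counts in NOZ-R and none in NOZ. CCR2, the receptor of CCL2, had 1 count in NOZ-R. CCR6, the receptor of CCL20, had 0. CXCR4 and CXCR5 had 0 counts, CXCR3 had 1 count in NOZ, and CCR4 had 2 counts in each of 2 NOZ-R libraries. Of the atypical receptors, ACKR4 had 3, 3 and 3 counts in the parental libraries and 6, 10 and 7 in the resistant ones. Its edgeR adjusted p was 0.136 when no filter was applied, and it shares exon sequence with ACAD11 on the opposite strand. ACKR2 had 7 counts over NOZ and 2 over NOZ-R, ACKR3 had 1 count in NOZ-R, and ACKR1 had 0.

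Of the 17 members that were detected and not tested, 14 had 9 or fewer counts in all, and the others were CCL24, ACKR4 and CXCL10. For CXCL10 the ratio of NOZ-R to NOZ was 4.84 with a 95% counting interval of 1.002 to 46.0, and the lines overlapped. Its edgeR adjusted p was 0.284 when no filter was applied. CCR9 had 6 counts in NOZ, 5 of them in replicate 2, and none in NOZ-R. CCL22 had 3 counts in each line, and CCL14 had 1 count in NOZ-R. A count of 0 over a line's 3 libraries allows up to 3 counts, or 0.0568 CPM in the parental libraries and 0.061 CPM in the resistant ones, for counting error only. Below that level the members at 0 were not detectable at this depth. They were CXCL6, CXCL9, CXCL12, CXCL13, CXCL14, CCL1, CCL3, CCL4, CCL7, CCL8, CCL11, CCL13, CCL15, CCL16, CCL17, CCL18, CCL19, CCL21, CCL23, CCL25, CCL27, XCL1, XCL2, CXCR1, CXCR4, CXCR5, CCR6, CCR8 and ACKR1.

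Levels of different genes were compared per length, with the deposited FPKM values (fragments per kilobase of transcript and per 1000000 fragments). In NOZ the order was CXCL8 with 7.66 FPKM ± 0.311, CXCL2 with 3.38 ± 0.640, CCL28 with 3.32 ± 0.402 and CXCL1 with 1.79 ± 0.346 (SD, n = 3). CXCL2 and CCL28 overlapped in their libraries and their order is not established, while CXCL8 stood above both. From CX3CL1, with 0.418 FPKM ± 0.0835, downwards every neighbour overlapped the next. In NOZ-R the order was CXCL8 with 40.6 FPKM ± 1.63, CXCL1 with 19.1 ± 0.819, CCL2 with 10.1 ± 0.301 and CXCL2 with 8.86 ± 0.263 (SD, n = 3), and none of these neighbours overlapped. CCL28, with 2.80 FPKM ± 0.277, and CXCL3, with 2.41 FPKM ± 0.350, came next and overlapped. The other 11 tested members lay between 1.58 FPKM ± 0.230 (CX3CL1) and 0.147 FPKM (CCR10). Among all 14386 genes tested CXCL8 had rank 4945 by mean FPKM in NOZ and rank 913 in NOZ-R, and CCL2 had rank 13826 and rank 3724.

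The genes of the family lie in clusters, and within a cluster the expressed genes stood beside silent ones. On chromosome 4, a stretch of 359 kb holds 9 genes of the family in the order CXCL8, CXCL6, PF4V1, CXCL1, PF4, PPBP, CXCL5, CXCL3 and CXCL2. Here the 4 genes that rose were interrupted by CXCL6, PF4V1, PF4 and PPBP with 0 counts and CXCL5 with 2. On chromosome 17, CCL2 stood at 1 end of a 108 kb stretch whose 5 other genes, CCL7, CCL11, CCL8, CCL13 and CCL1, had 0 counts. In a second stretch of chromosome 17, 341 kb long, CCL5 and CCL3L3 rose, and 6 of the 10 genes had 0 counts. On chromosome 3, a stretch of 526 kb holds 8 receptor genes, of which CCR1 and CCR3 rose, CXCR6 did not pass, and CCR2, CCR9 and XCR1 had at most 6 counts in a line. The median log2 fold change of all genes tested was 0.15 on chromosome 4, 0.06 on chromosome 17, -0.07 on chromosome 3, 0.21 on chromosome 16, -0.30 on chromosome 7 and 0.18 on chromosome 2, each smaller in size than the change of any called member on that chromosome.

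**Figure D3:**
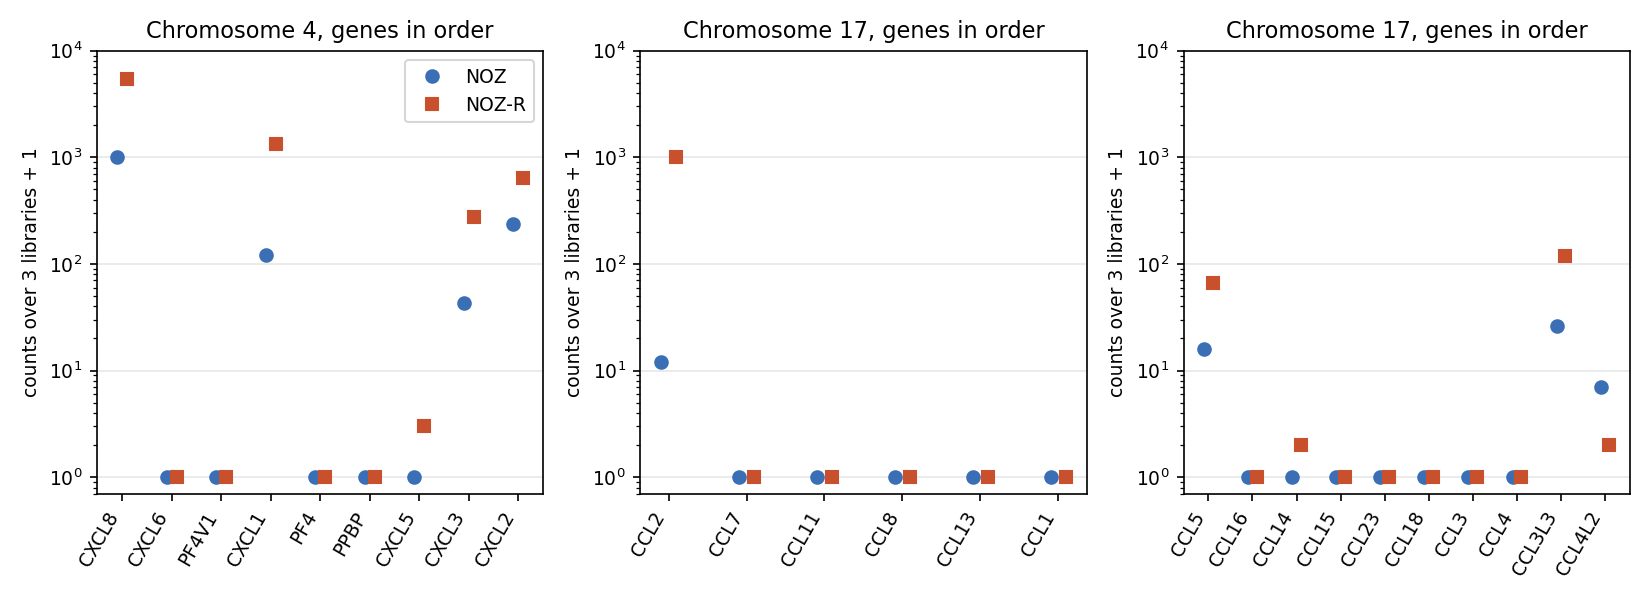
Counts over the 3 libraries of a line plus 1 (log axis), for family genes in genome order in the clusters of CXCL8, CCL2 and CCL5, with NOZ as blue circles and NOZ-R as red squares. Genes at 1 had no count, and they lie between or beside the genes that rose.

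Relatives of the family outside the symbol rule were tested in 4 of 11 cases, and 3 rose, against 30.4% of all genes tested. Of these, CMKLR1 passed the low-count filter through the resistant line alone, so its call adds no support to the count. CMKLR1, the receptor of the attractant chemerin, had 2, 3 and 1 counts in the parental libraries and 66, 77 and 63 in the resistant ones, and edgeR put the log2 difference at 5.12 ± 0.356 (SE), with an adjusted p of 3.84e-08. CD74, the invariant chain of HLA class II and a receptor of the cytokine MIF, was at 71.6 CPM ± 4.99 in the parental libraries (SD, n = 3) and rose to 244.5 CPM ± 10.7 in the resistant ones (SD, n = 3). CCRL2, an atypical receptor, rose by 0.52 ± 0.212 (SE) on the log2 scale, with an edgeR adjusted p of 0.0471, and this call did not hold in 11 of 16 alternative settings. The remaining tested gene, the chemerin gene RARRES2, did not pass, at -0.51 on the log2 scale and an edgeR adjusted p of 0.108. MIF itself had 2, 2 and 0 counts in the parental libraries and 1, 0 and 0 in the resistant ones. In the annotation used its exons overlap those of other gene models, so a low count need not show a low transcript level. PF4, PF4V1, PPBP and XCR1 had 0 counts, and CX3CR1, the receptor of CX3CL1, had 2 in NOZ-R.

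Of the cytokines, receptors and transcription factors that induce chemokine genes, 37 were tested. There were 21 higher, 4 lower and 12 that did not pass, against 30.4% higher and 29.8% lower among all genes tested, with a median log2 fold change of 0.41 against -0.01 for all genes. TNFAIP3, a feedback inhibitor of NF-kappaB, was at 8.42 CPM ± 0.347 in the parental libraries and at 61.1 CPM ± 3.38 in the resistant ones (SD, n = 3 each), and edgeR put the log2 difference at 2.86 ± 0.0866 (SE), with an adjusted p of 9.03e-12. IRF1, a transcription factor of interferon responses, rose by 1.06 on the log2 scale. IL1R1, the receptor of interleukin-1, had 0 counts in the parental libraries and 2.27 CPM ± 0.376 in the resistant ones (SD, n = 3), at least 40.1-fold higher. IL1R1 passed the low-count filter through the resistant line alone, so its call adds no support to the count. Among the NF-kappaB subunits NFKB1 rose by 0.50, while RELA was at 82.6 CPM ± 8.06 in the parental libraries and at 87.6 CPM ± 6.45 in the resistant ones (SD, n = 3 each) and did not pass (edgeR adjusted p = 0.375). NFKBIZ fell by 0.72, the kinase CHUK fell by 0.69 and TRAF6 fell by 0.44 on the log2 scale.

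Genes of signalling downstream of the receptors went both ways. Of 27 tested, 13 were higher, 10 lower and 4 did not pass, against 30.4% higher and 29.8% lower among all genes tested. The median log2 fold change was -0.08. The balance turned to 11 higher and 14 lower with library size only, 10 and 12 with limma, and 13 and 14 without NOZ replicate 2. Some of the higher genes, among them VAV3, PIK3CG, PREX1 and ELMO1, passed the low-count filter through the resistant line alone. PLCB2, called lower, passed it through the parental line alone. For such genes the filter favours a difference, so their calls add no support to the counts. VAV3, a guanine nucleotide exchange factor, had 3 counts over the parental libraries and 55.6 CPM ± 3.18 in the resistant ones (SD, n = 3), which is 978.5 times as much (95% counting interval 334.5 to 4748). The phospholipase gene PLCB1 rose by 3.76 and the arrestin gene ARRB1 by 2.09 on the log2 scale. The receptor kinase gene GRK5 fell by 1.32, PLCB2 fell by 1.27 and the G protein subunit gene GNAI1 fell by 1.01 on the log2 scale.

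Genes for proteins that bind, present or cleave chemokines were higher in 16 of 19 tested cases, and none was lower. By edgeR at an unadjusted p below 0.05 none was lower either, whereas limma on log2 FPKM values called 1 lower. Among all genes tested 30.4% were higher and 29.8% lower. Genes at or near 0 in the parental line, such as DPP4 and MMP13 below, passed the low-count filter through the resistant line alone. For these genes the filter favours a difference, so their calls are no support for a change of the list. The median log2 fold change was 0.78. DPP4, the peptidase that trims the amino end of CCL5, CXCL10 and other chemokines, had 0 counts in the parental libraries and 6.46 CPM ± 0.453 in the resistant ones (SD, n = 3), at least 114-fold higher. MMP13 had 2 counts over the parental libraries and 6.58 CPM ± 1.35 in the resistant ones (SD, n = 3), which is 176 times as much (95% counting interval 48.3 to 1458). MMP3, which like MMP13 can cleave chemokines, rose by 5.07 on the log2 scale.

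**Figure D4:**
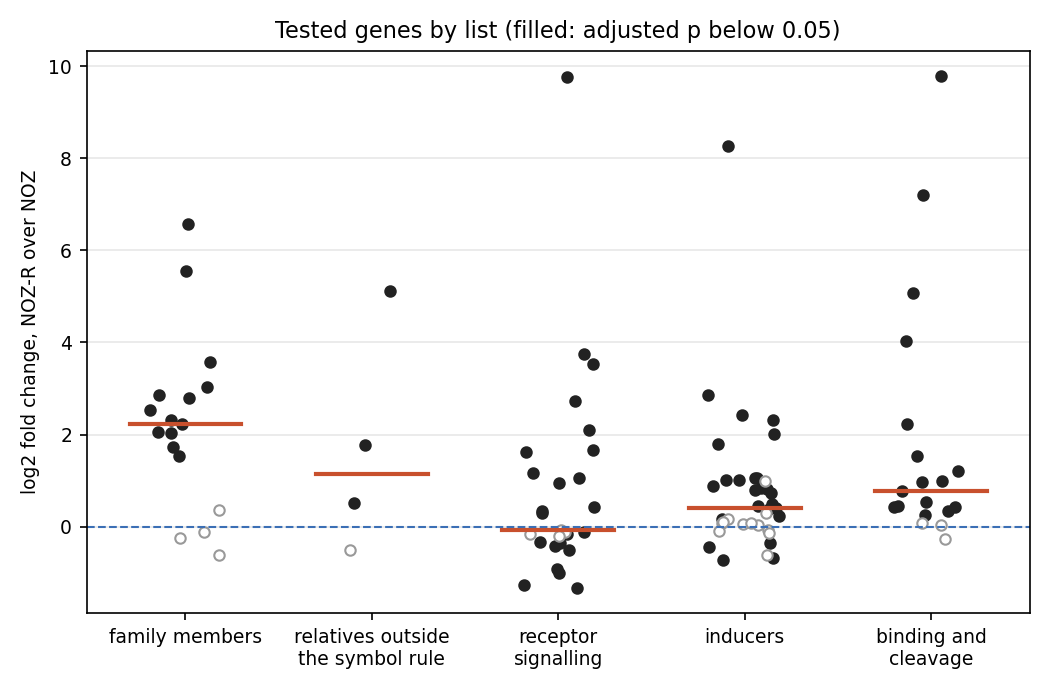
Log2 fold change of NOZ-R over NOZ for each tested gene of the family and of 4 related lists, filled where the edgeR adjusted p was below 0.05. Red bars are medians (2.24, 1.15, -0.08, 0.41 and 0.78 from left to right), and the dashed line is the median of all genes tested, -0.01.

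Many chemokine receptors and ligands are also made by leukocytes and stromal cells, so markers of these were read beside the family. Of 18 leukocyte and endothelial markers 15 had counts, and their summed level was 5.87 to 8.84 CPM in the NOZ libraries and 14.9 to 16.4 CPM in the NOZ-R libraries. The highest was PECAM1, at 1.87 CPM ± 0.0686 in the parental libraries and at 9.21 CPM ± 0.571 in the resistant ones (SD, n = 3 each), followed by CD14, which did not pass, and CSF1R, which rose by 1.85 on the log2 scale. The pan-leukocyte gene PTPRC had 28, 14 and 7 counts in the parental libraries and 4, 2 and 5 in the resistant ones and was not tested. S100A8, FCGR3B and MS4A1 had 0 counts, CD68 had at most 1 and CD3D at most 4 in any library. Of 15 fibroblast markers 13 had counts, with a summed level of 13.5 to 14.6 CPM in the parental libraries and 83.6 to 93.6 CPM in the resistant ones, most of it from COL6A3. Of the 7 tested, 4 were higher and 1 lower, with a median log2 fold change of 3.10. Among all genes tested 30.4% were higher and 29.8% were lower. Markers at 0 in the parental line, such as POSTN below, passed the low-count filter through the resistant line alone. For these the filter favours a difference, so they are no support for a change of the list. COL6A3 rose by 3.44 and COL3A1 by 3.10 on the log2 scale, and ACTA2 fell by 0.46. POSTN had 0 counts in the parental line and 62, 57 and 58 in the resistant libraries, at least 63.4-fold higher, and FAP had 0 in the parental line and 17, 14 and 20 in the resistant libraries, at least 18.3-fold higher. DCN, LUM and PDGFRA, which were not tested, had 0, 0 and 5 counts over NOZ and at most 19, 14 and 12 in any NOZ-R library. THY1 had at most 1 count and COL1A2 at most 3 in any library, and DPT and PDPN had 0. The part of other cell types in the changes of the family was not tested.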

How the data were processed

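The members of the family and the gene lists were chosen with earlier results of these data known. Whole-number counts and FPKM values per gene were used as the authors deposited them. The submitters' processing notes name fastp 0.22.0 and GRCh38, without their role. Not given in the sources used here are the aligner, the counter, the annotation and the strand setting, and the labels' protocol describes neither a strand-marking step nor molecular identifiers, so intervals and floors cover counting error only. The deposited FPKM equal the counts divided by the library total and a fixed length per gene, to within 0.0006%, and were used only to compare levels between genes and in an alternative test.

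From the counts, genes were kept by edgeR's filterByExpr (14386 of 63140, of which 31615 had a count), scaled by TMM and tested with the quasi-likelihood test of edgeR 4.0.16 (R 4.3.3), with Benjamini-Hochberg adjustment at 0.05. The SE is the size of the log2 fold change divided by the square root of F. Members with at least 10 counts in all were named, and those called were given in every library. Of each related list the 3 largest increases and decreases past the threshold with a mean of at least 1 CPM were named, plus RELA, NFKB1, IRF1 and DPP4, and of markers the 4 highest per list. Some genes that this rule covers are not reported here. Genes named beyond that, such as MIF, RARRES2 and further markers, were chosen after their values were seen. In 5 simulated draws over 14386 genes with 200 changed, 83.8% of changes of 1 and 97.0% of changes of 2 on the log2 scale were recovered, and 6.68% of calls were false. The changed genes were drawn from all levels with balanced directions, and were far fewer than the 60.2% of genes called in the data. These rates therefore need not hold for the data or for members with few counts. No pair of libraries agreed within sampling noise (mean chi-square per gene 2.18 to 11.5). Gene positions are from GENCODE release 29, and promoter sequences are from RefSeq (GRCh38.p14). CCL2, CX3CL1, CXCL16 and CCL5 had no entry in the promoter table. Alternatives used DESeq2 1.42.0, limma 3.58.1, other scalings and filters, a test against a 2-fold change, and each library left out.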

Additional observations from a re-analysis of the deposited data

How the results depend on the processing

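No fold change of a called member changed sign in the 16 alternatives. The balance of higher and lower calls over all genes tested did turn, from 4379 and 4284 to 4257 and 4408 with upper-quartile factors and 3316 and 5468 with library size only, and in receptor signalling from 13 and 10 to 11 and 14 with library size only, 10 and 12 with limma, and 13 and 14 without NOZ replicate 2. The inducers had 18 higher with limma against 21. The log2(FPKM + 1) scale gave smaller fold changes for low genes, such as 0.79 for CCR1 and 0.22 for CCR3. The count of members called higher was 13 in each alternative except 14 with no filter, where CCL24 was added, 9 with at least 1 CPM in 3 libraries, where fewer members were tested, and 12 in the test against a 2-fold change. Members called lower were 0 throughout. The fold change of every called member stayed past the threshold in each alternative that tested it, except CCL20 in the 2-fold test. Leaving out each library in turn gave 13 members higher each time, and 3932 to 4548 higher and 3815 to 4267 lower genes over all genes tested. The replicate numbers were not shown to pair the samples, since same-numbered libraries correlated at 0.134, -0.0358 and -0.094 in their deviations, and the fit with the replicate block gave 13 members higher and, over all genes tested, 4324 higher and 4180 lower genes. The 2-fold test called 847 genes higher and 442 lower in the whole table. It called 6 higher and 1 lower in receptor signalling, 6 higher and 0 lower among the inducers, and 7 higher among the genes that bind, present or cleave chemokines. With library size only, and with limma on FPKM with a pseudocount of 1 or 0.1, 1 relative outside the symbol rule and 1 gene that binds, presents or cleaves chemokines were called lower, against 0 for each in the reported test. The latter count was 0 to 1 when single libraries were left out, with the 1 found without NOZ-R replicate 1. Whole-table calls by limma were 3219 higher and 5298 lower with the pseudocount of 1, and 3237 higher and 5317 lower with 0.1. Depth limits the members with few counts, whose fold changes rest on 2 (CCR1) to 11 (CCL2) NOZ counts for the largest changes.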
